A study of Mus musculus with 13 samples.

Results

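The transcripts described here are 10 genes of the choroid plexus, Ttr, Kl, Folr1, Clic6, Kcnj13, Otx2, Sostdc1, Enpp2, Calml4 and Prlr, chosen by name as markers of that tissue. All 10 were found among the 55416 gene identifiers of the count table, and all 10 passed the filter on low counts, which left 22507 genes. They were measured by mRNA sequencing of mouse brain tissue in 13 libraries of 4 groups: knockouts in normoxia (n = 3), flox controls in normoxia (n = 3), knockouts in hypoxia (n = 4) and flox controls in hypoxia (n = 3). The study asked how low oxygen changes gene programs in mice with cerebral cavernous malformations, clusters of widened, leaky capillaries.

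The knockouts (KO) were Slco1c1-iCreERT2;Pdcd10fl/fl mice, in which 4-hydroxytamoxifen, 50 µg on postnatal day 1, removes Pdcd10 (also called Ccm3) where the Cre recombinase is made. The controls (flox) were Pdcd10fl/fl littermates, so all 4 groups carried the loxP-flanked gene. The design text also names Cre-carrying animals without injection as controls, and does not make clear whether the flox mice were injected. Hypoxia was 12% oxygen for 7 days and normoxia 21% oxygen. The Slco1c1 promoter drives expression in brain endothelium, and the Slco1c1 gene, which encodes a thyroid hormone transporter, is also expressed in choroid plexus epithelium. The labels give no age at collection, animal identifier or date.

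The choroid plexus is a fringe of epithelium around leaky capillaries that hangs in the brain ventricles and secretes cerebrospinal fluid. Tight junctions between its epithelial cells form the barrier between blood and that fluid, and the cells move ions, folate, hormones and nutrients across it. It is the main site of transthyretin synthesis in the brain, and the transcription factor Otx2 is needed for its formation. In whole brain tissue, fewer choroid plexus cells and less of a transcript per cell cannot be told apart.

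Of the 13 libraries, KO normoxia replicate 2 stood apart from the rest in these genes. All 10 members were lower there than in each of the other 12 libraries, which held for 5.82% of all genes tested, and Ttr was at 0.635% of the median of the others. The members were chosen with these low values known, so this and the later counts for that library are descriptions and not tests. That library was also the deepest, with 71216636 counts against 42090437 to 67813639 in the others. Levels are given as CPM, counts scaled to a common library size. A gene with 0 counts could have had up to 3, which is 0.0428 to 0.0717 CPM over the 13 libraries. Its Pdcd10 level was 18.1 CPM and its Slco1c1 level 115 CPM, against 16.2 and 16.4 CPM of Pdcd10 and 108 and 180 CPM of Slco1c1 in the other KO normoxia libraries. Flox normoxia libraries had 16.2 to 17.8 CPM of Pdcd10 and 55 to 157 CPM of Slco1c1. The 18.1 CPM of Pdcd10 was the highest of the 13 libraries, and its level in this tissue did not separate the genotypes in normoxia. Counts of Xist exceeded those of Y-linked genes in 4 of the 13 libraries, although the labels call all of them male, and KO normoxia replicate 2 was not among these 4. Since 1 of 3 libraries sets the KO normoxia group apart in these genes, the comparisons of the members that use that group are given with and without that library.

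The members differ widely in abundance. On the length-corrected scale (RPKM, which divides the scaled count by the length of the gene), the median level over the other 12 libraries was 257 RPKM for Ttr, which encodes the carrier of thyroxine and retinol-binding protein, with a range of 234 to 387 RPKM. Enpp2, which encodes the secreted enzyme autotaxin that makes lysophosphatidic acid, followed at 52.0 RPKM (46.8 to 67.1 RPKM). Clic6 and Kl came next, with medians of 2.86 and 2.38 RPKM and ranges that overlapped. The remaining 6 members lay lower, at 1.83 RPKM for Sostdc1, 1.53 RPKM for Kcnj13, 1.11 RPKM for Folr1, 0.536 RPKM for Otx2, 0.520 RPKM for Prlr and 0.376 RPKM for Calml4. Between neighbours in this order, the ranges of Ttr and Enpp2, of Enpp2 and Clic6 (highest 4.05 RPKM), and of Folr1 (lowest 0.876 RPKM) and Otx2 (highest 0.554 RPKM) did not overlap over these libraries. The ranges of the other neighbouring pairs overlapped, so their order is not fixed beyond the spread between libraries.

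Promoter sequences are shown for 4 members that were low together in the library that stood apart, to give the sequence around their starts. RefSeq's table for mouse (GRCm38.p6) held 10 promoter windows for 5 of the members, each from 250 bases before to 50 bases after a start. They were searched on both strands for TAATCC (the core bound by Otx2-type homeodomains), TATAAA (the TATA box), GGGCGG (the GC box) and TTCNNNGAA (the core bound by STAT factors, which act downstream of the prolactin receptor). Over all 32851 windows in the table, TAATCC stood in 7.06%, TATAAA in 13.6%, GGGCGG in 35.7% and TTCNNNGAA in 8.30%. The windows below run 5′ to 3′ on the gene's strand with matches in capitals. They are Kcnj13 at chr1:87394680-87394979 (minus strand), Kl at chr5:150952357-150952656 (plus strand), 1 of 4 Otx2 windows at chr14:48665060-48665359 (minus strand) and 1 of 3 Prlr windows at chr15:10223656-10223955 (plus strand).
Kcnj13: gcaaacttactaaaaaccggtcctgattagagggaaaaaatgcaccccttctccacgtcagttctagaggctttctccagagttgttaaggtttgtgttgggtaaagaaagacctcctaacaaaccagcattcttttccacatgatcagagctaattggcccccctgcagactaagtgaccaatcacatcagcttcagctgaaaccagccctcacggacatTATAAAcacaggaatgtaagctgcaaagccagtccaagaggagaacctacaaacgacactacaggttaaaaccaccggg
Kl: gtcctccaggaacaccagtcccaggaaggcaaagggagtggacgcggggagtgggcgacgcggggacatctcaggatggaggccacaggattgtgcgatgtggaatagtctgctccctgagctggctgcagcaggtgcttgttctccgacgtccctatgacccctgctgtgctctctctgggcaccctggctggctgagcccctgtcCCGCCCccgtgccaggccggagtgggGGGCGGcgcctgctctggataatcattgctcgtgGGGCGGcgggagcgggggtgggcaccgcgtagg
Otx2: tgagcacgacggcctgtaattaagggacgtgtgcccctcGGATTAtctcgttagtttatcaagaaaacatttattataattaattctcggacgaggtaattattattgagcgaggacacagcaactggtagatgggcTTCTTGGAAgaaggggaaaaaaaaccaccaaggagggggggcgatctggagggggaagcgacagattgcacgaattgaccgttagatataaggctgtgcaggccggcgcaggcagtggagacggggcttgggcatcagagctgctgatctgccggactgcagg
Prlr: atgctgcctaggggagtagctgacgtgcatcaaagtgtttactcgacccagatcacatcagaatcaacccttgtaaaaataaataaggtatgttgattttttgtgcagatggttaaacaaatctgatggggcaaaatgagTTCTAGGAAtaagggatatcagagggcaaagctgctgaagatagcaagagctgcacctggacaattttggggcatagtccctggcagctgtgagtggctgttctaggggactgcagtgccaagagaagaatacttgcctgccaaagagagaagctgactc
The Kcnj13 window held TATAAA and the Kl window held GGGCGG at 3 places. In the Otx2 window TAATCC was matched on the opposite strand, as GGATTA, beside 1 match to TTCNNNGAA, and the Prlr window held 1 match to TTCNNNGAA. The Otx2 and Prlr windows were picked for holding matches. Of the other Otx2 windows 1 held TATAAA and 2 held no match, and the 2 other Prlr windows held none. Over the 10 member windows, TAATCC stood in 1, TATAAA in 2, GGGCGG in 2 and TTCNNNGAA in 3. A match describes the letters in these windows and is not evidence of binding.

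The secreted products differed in how low they were in that library. Ttr had 278, 1.95 and 297 CPM in the 3 KO normoxia libraries, against 310, 373 and 284 CPM in flox normoxia, and 310, 317, 274 and 418 CPM in KO hypoxia, against 297, 305 and 462 CPM in flox hypoxia. A single library was low, and the other 12 lay within 274 to 462 CPM with a coefficient of variation of 18.1%. The 1.95 CPM of KO normoxia replicate 2 rested on 137 counts (95% Poisson interval 1.64 to 2.31 CPM, for counting error only).

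Enpp2 kept more of its level than any other member. It had 271, 164 and 310 CPM in KO normoxia, against 338, 352 and 289 CPM in flox normoxia, and 282, 285, 284 and 313 CPM in KO hypoxia, against 301, 306 and 390 CPM in flox hypoxia. In KO normoxia replicate 2 it was at 54.2% of the median of the other 12 libraries, from 11533 counts. Enpp2 is also made by oligodendrocytes, and a list of 10 oligodendrocyte genes was at a median of 92.2% (87.2 to 101%) in that library. What part of the Enpp2 counts came from which cells was not tested.

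Sostdc1, which encodes a secreted inhibitor of BMP and Wnt signals, was at 0.841 CPM (59 counts) in KO normoxia replicate 2, against 2.02 to 3.81 CPM in the other 12, or 25.7% of their median. Kl encodes klotho, a membrane protein that is shed into the fluid and serves as a co-receptor for FGF23. It had 16, 5.19 and 22.2 CPM in KO normoxia, against 28.7, 30.0 and 21.4 CPM in flox normoxia, and 20.9, 21.3, 18.5 and 23.5 CPM in KO hypoxia, against 22.9, 22.3 and 31.8 CPM in flox hypoxia. The genotypes overlapped in both oxygen conditions, and KO normoxia replicate 2 was at 23.3% of the median of the others.

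**Figure D1:**
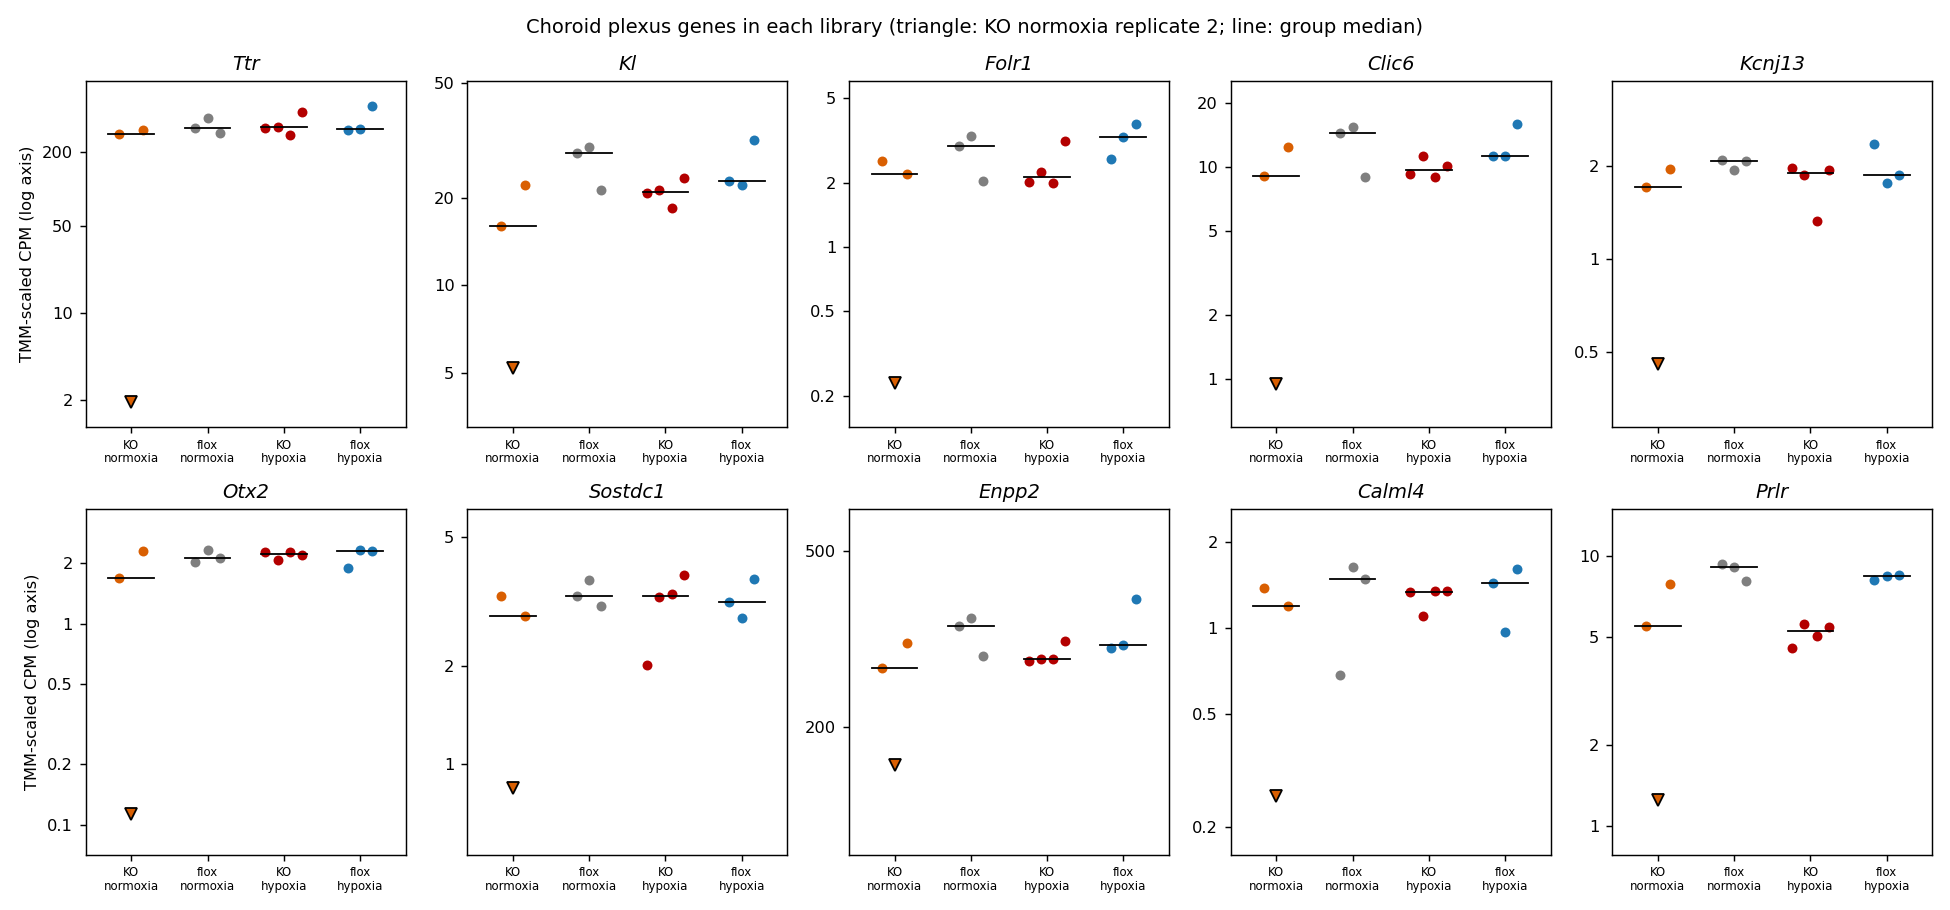
CPM of the 10 choroid plexus genes in each of the 13 libraries (log axes that differ between panels), with groups along the x axis, a line at each group's median and a triangle for KO normoxia replicate 2. Every triangle lies below all other points of its panel, by the widest margin for Ttr at 1.95 CPM against 274 CPM in the next lowest library, while the other KO and flox libraries overlap in both oxygen conditions in each panel except that of Prlr and, by a margin too small to see, that of Clic6 in hypoxia.

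The transporters and channels included some of the lowest values. Folr1, the high-affinity folate receptor that carries folate into cerebrospinal fluid, was at 0.228 CPM (16 counts) in KO normoxia replicate 2, against 1.99 to 3.77 CPM in the others, or 8.90% of their median. Clic6, a member of the chloride intracellular channel family, had 9.04, 0.955 and 12.5 CPM in KO normoxia, against 14.4, 15.5 and 8.99 CPM in flox normoxia. Without the low library, both Clic6 values in KO normoxia lay within the flox range.

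Kcnj13, which encodes the potassium channel Kir7.1, was at 0.456 CPM (32 counts) in KO normoxia replicate 2, against 1.32 to 2.35 CPM in the others, or 23.6% of their median. Reads of Kcnj13 could be shared with Gigyf2, within which it lies in the RefSeq annotation, since the strand setting of the counting is not given in the sources used here. Ttr, Folr1 and Prlr likewise overlap long noncoding RNAs, and Calml4 a transcribed pseudogene.

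Otx2, the homeodomain factor, was at 0.114 CPM (8 counts, 95% Poisson interval 0.0492 to 0.225 CPM) in KO normoxia replicate 2, against 1.69 to 2.34 CPM in the other 12, or 5.10% of their median. It was the steadiest member in those 12, with a coefficient of variation of 9.51%. Calml4, a calmodulin-like protein of epithelial brush borders, was at 0.257 CPM (18 counts), against 0.682 to 1.63 CPM, or 19.1% of the median. Prlr, the receptor for the pituitary hormone prolactin, which is abundant in choroid plexus epithelium, was at 1.25 CPM (88 counts), against 4.56 to 9.39 CPM, or 15.7% of the median.

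The members were thus not low to the same degree in KO normoxia replicate 2. Ttr, Otx2, Clic6 and Folr1 were more than 4 times below the lowest of the other 12 libraries, which held for 44 genes tested (0.195%), while Enpp2, Sostdc1, Kcnj13, Kl, Calml4 and Prlr were not. Among 16609 genes with a mean of at least 1 CPM, 12 were this far below the others in this library, against 2 in flox normoxia replicate 3, 2 in KO hypoxia replicate 1 and 0 in each of the other 10. No gene tested was more than 4 times above the highest of the others in KO normoxia replicate 2. The 10 members together held 0.0173% of its counts, against 0.0589% to 0.0916% in the others.

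A mean of log2 CPM over the 10 members gives 1 value per library. This score was 3.10, 0.35 and 3.28 in KO normoxia, against 3.36, 3.57 and 3.24 in flox normoxia, and 3.10, 3.20, 3.09 and 3.36 in KO hypoxia, against 3.33, 3.29 and 3.63 in flox hypoxia. KO normoxia replicate 2 lay 2.94 below the median of the other 12 on the log2 scale, where the SD of those 12 was 0.17. This gap is a description too, since the members were chosen with it known. The highest value was that of flox hypoxia replicate 3, which also had the highest Ttr (462 CPM), Kl (31.8 CPM), Folr1 (3.77 CPM), Clic6 (15.9 CPM) and Enpp2 (390 CPM) of all libraries.

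Other choroid plexus genes were also low in KO normoxia replicate 2. Of 29 further choroid plexus epithelium genes with a median of at least 0.5 CPM in the other 12 libraries, 22 were below all of those libraries, and the list was at a median of 62.2% of their median (3.30% to 117%). Kcne2, a potassium channel subunit, was at 0.0855 CPM (6 counts) against a median of 2.59 CPM. Cldn2, a claudin of leaky tight junctions, was at 0.0998 CPM (7 counts) against 2.77 CPM, and Slc4a5, a sodium bicarbonate cotransporter, was at 0.214 CPM (15 counts) against 3.67 CPM.

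Several of the further genes were only mildly lower, among them Trpm3 at 79.4%, Slc12a2 at 90.4% and Igfbp2 at 96.9% of the median, and F5 was at 117%. Msx1 and Car12, at 66.3% and 52.1%, lay between. Genes of other lists were closer to the rest of the libraries. Of 12 ependymal and motile cilia genes, 1 was below all other libraries and the list's median was 85.6%. Dynlrb2 (60.3%), Dnah11 (60.5%), Tekt1 (69.5%) and Cfap126 (72.7%), genes of motile cilia, were the lowest of the 12. Each of them lay within the range of the other libraries, and Dynlrb2 and Dnah11 rested on 25 and 48 counts. Foxj1 was at 97.2%, while Tmem212 (122%), Ccdc153 (127%) and Pltp (136%) were above the median of the other libraries. The summed level of all 12 was 91.8 CPM, against 87.1 and 88.2 CPM in the other KO normoxia libraries, but 68.0 CPM of the 91.8 CPM were Pltp, a phospholipid transfer protein that endothelium also makes. Without Pltp the sum was 23.8 CPM, against 26.2 and 28.6 CPM in the other KO normoxia libraries. This lay within the range of all the other libraries, 22.8 CPM in flox normoxia replicate 1 to 30.0 CPM in KO hypoxia replicate 4.

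The remaining lists gave a median of 89.0% for 12 meningeal and perivascular fibroblast genes, 78.3% for 10 thalamus genes, 81.1% for 3 hypothalamus genes and 91.2% for 10 striatum genes. It was 91.5% for 9 hippocampus and dentate genes, 95.3% for 7 cerebellum genes, 96.7% for 2 pituitary genes, 120% for 10 pan-endothelial genes and 132% for 4 genes of retinal pigment epithelium and pineal gland. Below all other libraries were 0 meningeal, 1 thalamus, 1 hypothalamus, 0 striatum, 2 hippocampus, 1 cerebellum, 0 oligodendrocyte, 0 pituitary, 0 endothelial and 0 retinal or pineal genes. Outside the choroid plexus lists, among genes with a median of at least 0.5 CPM in the other libraries, the lowest single value was 36.9%, for a thalamus gene. At 14.6 CPM, that gene lay within the 12.4 to 58.4 CPM of the other libraries. Whether the tissue piece, the animal or the handling set this library apart was not tested.

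**Figure D2:**
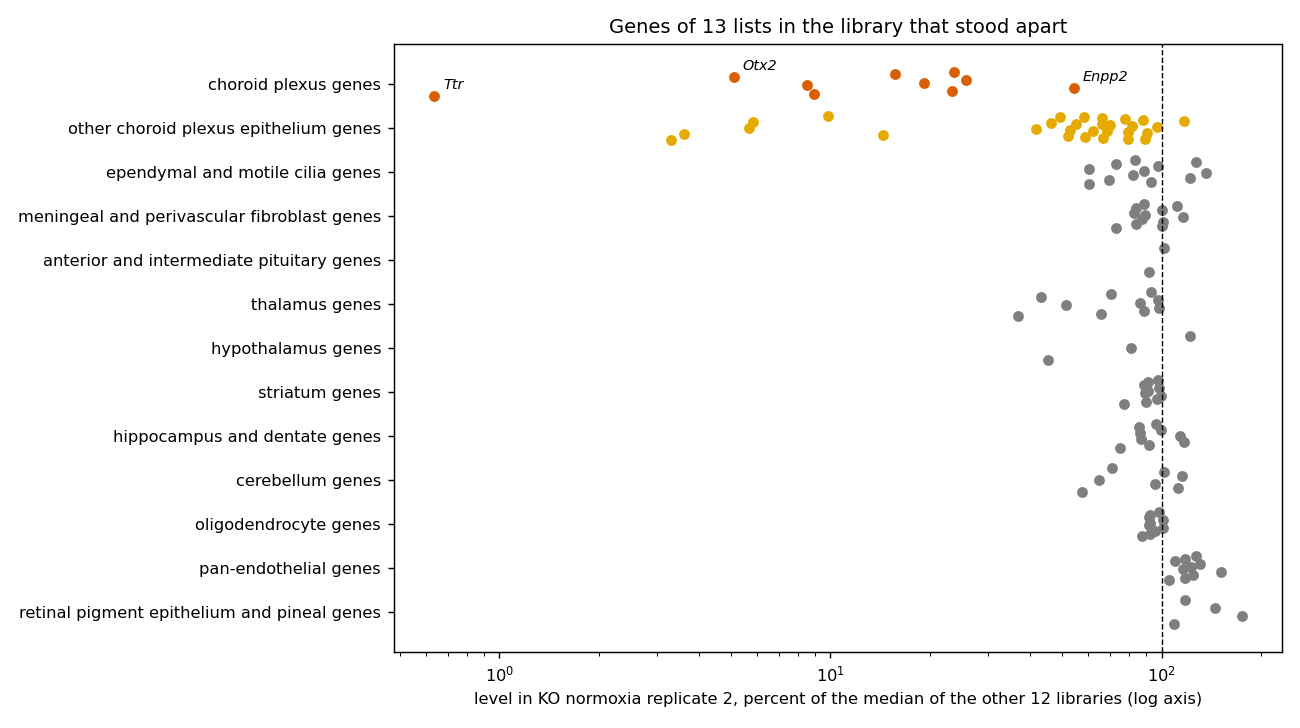
Level of each gene of 13 lists in KO normoxia replicate 2 as a percent of its median in the other 12 libraries (log axis), 1 point per gene with a median of at least 0.5 CPM, with a dashed line at 100%. The 10 choroid plexus genes run from 0.635% for Ttr to 54.2% for Enpp2, 6 of the further choroid plexus genes lie at 14.4% or less, and no plotted gene of the other 11 lists is below 36.9%.

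The genes most like the members were named by Pearson's correlation between log2 CPM and the score over all 13 libraries. The 10 with the highest r included Prr32, Tmem72, Kcne2, Cldn2, Slc4a5, Mfrp, Wdr86, Slc16a8 and Slc2a12, and 5 of the 10 were in the list of further choroid plexus genes. That ranking rests on KO normoxia replicate 2, which forms 1 cluster of its own. Without it and flox hypoxia replicate 3, the 2 libraries farthest from the median score, the median r of these 10 genes was 0.64.

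Within the other 12 libraries Prr32 had r = 0.89 and rho = 0.81 (permutation p = 0.00049 for r and 0.0020 for rho), and Tmem72 had r = 0.82 and rho = 0.78 (permutation p = 0.00092 and 0.0042). Cldn2 had r = 0.26 and rho = 0.48 (permutation p = 0.42 and 0.11), and Slc16a8 had r = 0.10 and rho = 0.06 (permutation p = 0.76 and 0.85). Of 22497 genes so compared over the 12 libraries, 0 passed the threshold after Benjamini-Hochberg adjustment of the permutation p, 2592 had an unadjusted p under 0.05, and the adjusted p was 0.354 for Prr32 and 0.392 for Tmem72. All these values share their libraries, tissue pieces and depth.

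Among the members themselves, the agreement over the 12 libraries was uneven. Set against the mean of the other 9 members, Enpp2 had r = 0.94 and rho = 0.94 over the 12 libraries (permutation p = 1e-05 for r, the smallest that 100000 permutations can give, and 3e-05 for rho). Kl had r = 0.88 and rho = 0.95 (permutation p = 0.00015 and 2e-05). Without flox hypoxia replicate 3 and flox normoxia replicate 2, the libraries farthest from the median, r was 0.84 for Enpp2 and 0.73 for Kl.

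Clic6, Folr1 and Ttr had r of 0.81, 0.75 and 0.73, and 0.56, 0.51 and 0.40 without those libraries. Prlr, Sostdc1, Kcnj13, Otx2 and Calml4 had r of 0.59, 0.45, 0.27, 0.26 and -0.01, and 0.50, 0.18, 0.49, -0.08 and -0.62 without those libraries. These relations are descriptions of genes picked as markers of 1 tissue, and are not adjusted for the 10 relations computed. The permutations ignored the groups, so differences between groups enter each permutation p. Calml4, Kcnj13 and Otx2, with at most 99, 138 and 158 counts in a library, were the members with the fewest counts. Folr1, with at most 187 counts, came next.

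Between genotypes in normoxia, all 10 members had lower fitted means in KO than in flox, and none passed the test. With all 13 libraries, 0 of 10 had an adjusted p under 0.05 by edgeR's quasi-likelihood test, against 2.33% of all genes tested. Kl, Prlr and Enpp2, 3 of the 10, were at an unadjusted p under 0.05, against 13.6% of all genes, and DESeq2 called 0. The members were chosen with the low values of KO normoxia replicate 2 known, so the shared direction and these counts are descriptions. The same holds for the other contrasts that use the KO normoxia group with that library in it. The log2 fold changes ran from -0.90 for Kl (SE 0.32, edgeR adjusted p = 0.207) to -0.39 for Enpp2 (SE 0.16, edgeR adjusted p = 0.288), with a median of -0.73 beside 0 over all genes.

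Ttr had a log2 fold change of -0.75 (SE 0.80, edgeR adjusted p = 0.757). Its group mean was 192 ± 165 CPM in KO normoxia and 322 ± 45.6 CPM in flox normoxia (SD, n = 3 each), so the SD in KO was nearly as large as the mean. Prlr was the 1 member whose groups did not overlap, at 5.5, 1.25 and 7.87 CPM in KO normoxia against 9.39, 9.12 and 8.13 CPM in flox normoxia, and 8.70% of all genes tested were lower in KO in this way. Its log2 fold change was -0.89 (SE 0.36, edgeR adjusted p = 0.284).

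Left out of the fit, KO normoxia replicate 2 took most of these shifts with it. The median log2 fold change of the members was then -0.17, with a range of -0.48 for Kl (SE 0.18, edgeR adjusted p = 0.284) to 0.02 for Calml4 (SE 0.31). Ttr was at -0.17 (SE 0.18) and Prlr at -0.41 (SE 0.14, edgeR adjusted p = 0.234). No member passed by edgeR, against 1.30% of 22967 genes tested, and 2 of 10 were at an unadjusted p under 0.05, against 11.3% of these genes.

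In hypoxia, where KO normoxia replicate 2 enters only the shared estimate of spread, Prlr had the largest fitted difference between genotypes of the 10 members, with that library and without it. Prlr had 4.56, 5.62, 5.08 and 5.49 CPM in KO hypoxia against 8.20, 8.44 and 8.53 CPM in flox hypoxia, with no overlap. The group means were 5.19 ± 0.479 CPM in KO (SD, n = 4) and 8.39 ± 0.171 CPM in flox (SD, n = 3). Its log2 fold change was -0.70 (SE 0.34, edgeR adjusted p = 0.238) with all libraries and -0.70 (SE 0.12, edgeR adjusted p = 0.00149) without KO normoxia replicate 2. Prlr also passed in a fit of the hypoxia libraries alone, at -0.68 (edgeR adjusted p = 0.0017), and with all 13 libraries and no filter on low counts, at -0.69 (edgeR adjusted p = 0.0148). With the fit without KO normoxia replicate 2, these were the only 3 passes among 200 member fold changes under alternatives. Under all other alternatives Prlr did not pass, with an adjusted p of up to 0.381 by edgeR or DESeq2.

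Clic6 was the other member whose groups did not overlap in hypoxia, at 9.30, 11.3, 8.94 and 10.1 CPM in KO against 11.3, 11.3 and 15.9 CPM in flox, and 9.37% of all genes tested were lower in KO in this way. Its nearest values, KO hypoxia replicate 2 and flox hypoxia replicate 1, were equal to 3 digits. With all 13 libraries, 0 of 10 members passed by edgeR, against 9.06% of all genes tested, and DESeq2 called 0. At an unadjusted p under 0.05 the count was 0, against 22.6% of all genes. Without KO normoxia replicate 2, edgeR called 1 of 10, against 8.48% of genes (2.03% lower in KO), and 4 of 10 were at an unadjusted p under 0.05, against 22.0% of genes.

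The other members in hypoxia had log2 fold changes, in the fit without that library, from -0.45 for Folr1 (SE 0.20, edgeR adjusted p = 0.198) to 0.02 for Otx2 (SE 0.15, edgeR adjusted p = 0.957). Ttr was at -0.11 (SE 0.15, edgeR adjusted p = 0.749). Ttr averaged 330 ± 61.9 CPM in KO hypoxia (SD, n = 4) and 355 ± 92.6 CPM in flox hypoxia (SD, n = 3), a difference smaller than either SD. The median over the 10 was -0.19, beside -0.01 over all genes.

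**Figure D3:**
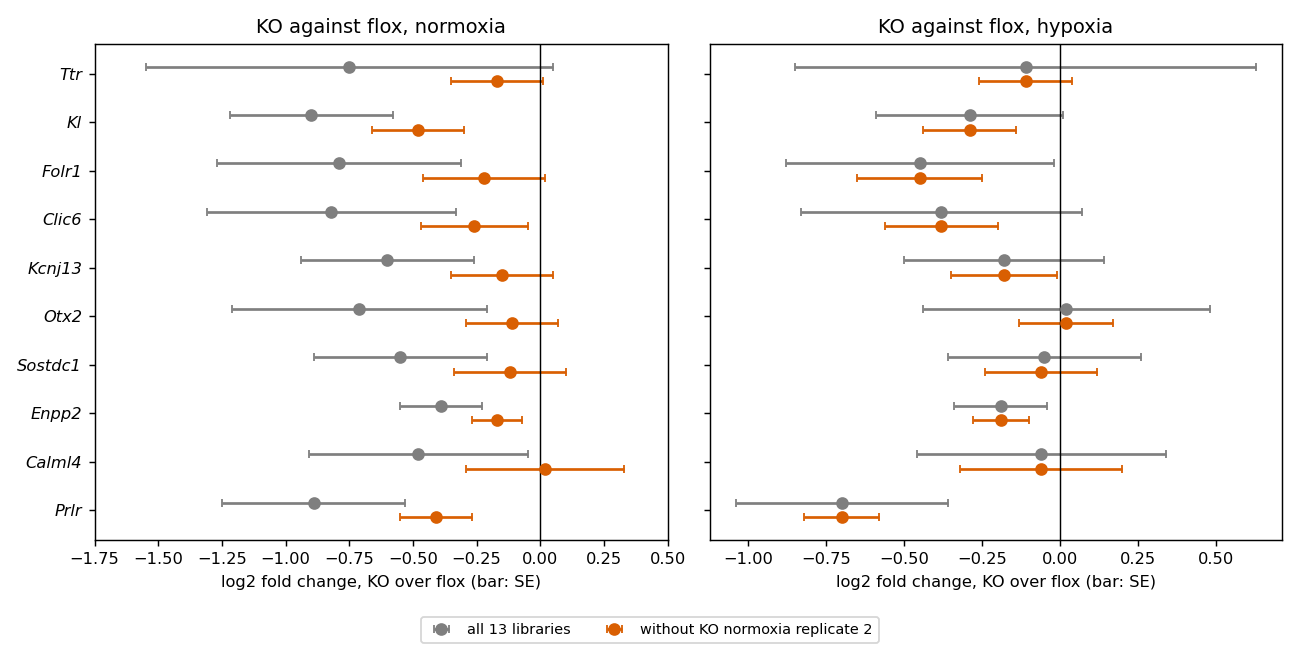
Log2 fold change of KO over flox for each of the 10 genes in normoxia (left) and hypoxia (right), with bars for the SE, from all 13 libraries in grey and without KO normoxia replicate 2 in orange. In normoxia the orange points lie nearer 0 than the grey ones for all 10 genes, and in hypoxia the points stay in place while the bars shrink, most for Ttr, with Prlr at -0.70 in both fits.

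Set against the other members of the same library, Prlr separated the genotypes in hypoxia too. Its log2 CPM minus the mean of the other 9 members was -1, -0.77, -0.81 and -0.99 in KO hypoxia, against -0.32, -0.23 and -0.59 in flox hypoxia. In normoxia the groups overlapped on this measure, at -0.71, 0.02 and -0.33 in KO against -0.14, -0.41 and -0.24 in flox. The difference between the genotype effects in hypoxia and normoxia (the interaction) did not pass for Prlr, at a log2 value of 0.20 (SE 0.50, edgeR adjusted p = 0.955) with all libraries and -0.29 (SE 0.18, edgeR adjusted p = 0.906) without KO normoxia replicate 2.

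Prl, the gene of the hormone itself, had 0 counts in each KO hypoxia library, which allows up to 3 counts, against 19, 6 and 13 counts in flox hypoxia. In normoxia it had 0 counts in each KO library, against 0, 0 and 2 counts in flox. Prolactin is made in the anterior pituitary, and so is growth hormone, whose gene Gh followed the same order. Gh had 2, 2, 0 and 0 counts in KO hypoxia against 38, 37 and 46 counts in flox hypoxia (edgeR adjusted p = 0.00025), and 0 counts in each of the 6 normoxia libraries. It was also called in flox hypoxia over flox normoxia (edgeR adjusted p = 0.031), and Prl did not reach the tested genes. Of the other pituitary genes tested, Tshb was at -0.01 (edgeR adjusted p = 0.981) and Pomc at 0.14 (edgeR adjusted p = 0.790) for KO over flox in hypoxia. The summed pituitary list, which includes Gh and Prl, was at 2.22 to 3.11 CPM in KO hypoxia against 3.15 to 3.94 CPM in flox hypoxia. Gh gave 0.733 to 1.10 CPM of the sum in flox hypoxia and at most 0.036 CPM in KO hypoxia. Prl gave 0.129 to 0.367 CPM in flox hypoxia and 0 in KO hypoxia, so the gap in the sum includes theirs. The part of pituitary tissue in the Prl and Prlr values was not tested. All 10 pan-endothelial genes were higher in KO hypoxia than in flox hypoxia, with a median log2 fold change of 1.03 and a summed level of 371 to 542 CPM in KO against 204 to 227 CPM in flox. The part of that rise in the Prlr result was not tested.

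**Figure D4:**
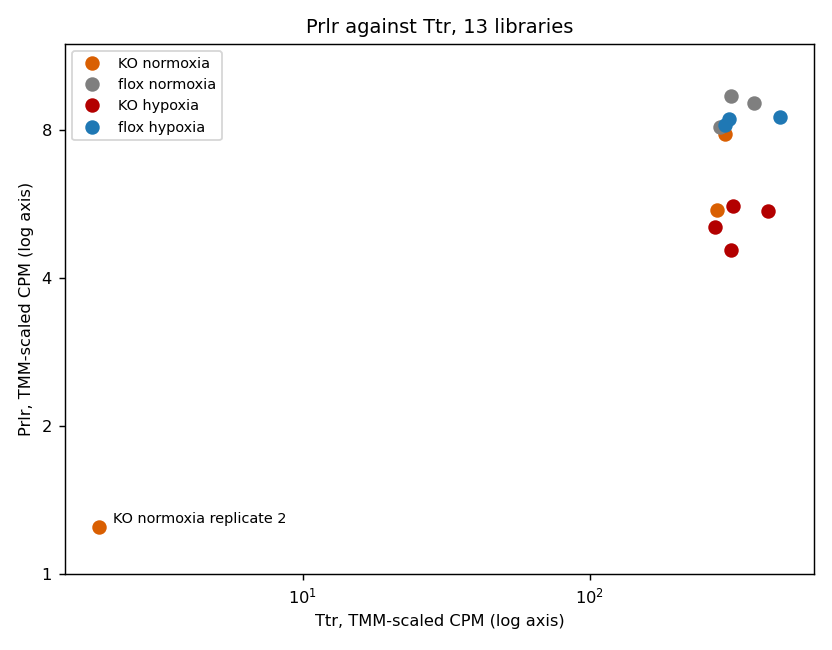
Prlr against Ttr in each of the 13 libraries, both as CPM on log axes, coloured by group. The KO hypoxia libraries lie at 4.56 to 5.62 CPM of Prlr, below the flox hypoxia libraries at 8.20 to 8.53 CPM, at Ttr levels that overlap, and KO normoxia replicate 2 lies alone at the lower left.

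Oxygen alone moved none of the members past the threshold. Hypoxia against normoxia in flox gave log2 fold changes from -0.08 to 0.21 with a median of 0, and 0 of 10 passed by edgeR, against 0.0222% of all genes tested. DESeq2 also called 0, and 0 were at an unadjusted p under 0.05, against 6.65% of all genes. In KO the 10 were all positive, from 0.12 for Prlr to 0.78 for Ttr, again with 0 of 10 past the threshold by edgeR, against 0.897% of all genes tested, and 0 by DESeq2. The count at an unadjusted p under 0.05 was 0, against 14.3% of all genes. Without KO normoxia replicate 2 the median in KO was 0 and Prlr had the lowest value, -0.37 (SE 0.13, edgeR adjusted p = 0.328).

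The interaction was positive for all 10 with all libraries, from 0.20 to 0.73 with a median of 0.43, and 0 of 10 passed by edgeR, beside 0% of all genes tested, or by DESeq2. The count at an unadjusted p under 0.05 was 0, against 7.26% of all genes. Without KO normoxia replicate 2, 6 of 10 were negative and the values ran from -0.29 to 0.19.

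Among the 31 further choroid plexus genes tested, the few that passed between genotypes were all higher in KO. Most of all genes called were higher in KO too, 441 of 524 in normoxia and 1526 of 2039 in hypoxia. In normoxia 1 of 31 was higher in KO and 0 lower, with a median log2 fold change of -0.19, or -0.07 and the same count without KO normoxia replicate 2. The gene was F5, coagulation factor V, at 1.31 (SE 0.21, edgeR adjusted p = 0.00333), and 1.96% of all genes tested were higher. Without KO normoxia replicate 2, F5 was at 1.37 (SE 0.23, edgeR adjusted p = 0.00891). Car14, a carbonic anhydrase, was at -0.51 (SE 0.13, edgeR adjusted p = 0.0514), or -0.37 (SE 0.12, edgeR adjusted p = 0.226) without KO normoxia replicate 2, where it was at 55.0% of the median of the others.

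In hypoxia 3 of 31 were higher and 0 lower, with a median of 0.01, beside 6.78% of all genes higher, and without KO normoxia replicate 2 the count was also 3. They were F5 at 1.79 (SE 0.21, edgeR adjusted p = 5.97e-05), Lbp, a lipopolysaccharide-binding protein, at 1.30 (SE 0.34, edgeR adjusted p = 0.0247), and Igfbp2, an IGF-binding protein, at 0.54 (SE 0.14, edgeR adjusted p = 0.0240). F5 and Igfbp2 were at 117% and 96.9% of the median in KO normoxia replicate 2, the library in which the 10 members were low. The ependymal list held 1 of 12 genes higher in KO in normoxia and 3 of 12 in hypoxia, with and without KO normoxia replicate 2. Its median log2 fold change was -0.01 in normoxia, or 0.09 without that library, and 0.20 in hypoxia in both fits. Without Pltp its summed level, which includes Rarres2 and Foxj1, was 27.5 to 30.0 CPM in KO hypoxia against 22.8 to 24.3 CPM in flox hypoxia. In normoxia that sum overlapped, at 26.2, 23.8 and 28.6 CPM in KO against 22.8, 28.7 and 27.2 CPM in flox. Pltp itself was at 64.5 to 82.3 CPM in KO hypoxia against 35.9 to 40.3 CPM in flox hypoxia. The genes higher in KO hypoxia were Pltp at 0.92 (SE 0.09, edgeR adjusted p = 2.37e-05), the adipokine gene Rarres2 at 1 (SE 0.18, edgeR adjusted p = 0.0021) and Foxj1, a regulator of motile cilia, at 0.40 (SE 0.11, edgeR adjusted p = 0.0301). The part of these cells in the counts of the further genes was not tested.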

How the data were processed

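Stranded mRNA libraries were made from 50 ng of brain RNA (integrity number over 8.0), per the labels. Sample titles gave the groups and replicate numbers. The authors deposited raw counts per gene and RPKM values for 55416 Ensembl identifiers. The deposited RPKM equal the counts divided by the column total and 1 length per gene (relative range at most 1.7e-13). The submitters' processing notes name HISAT2, edgeR and GRCm39 with neither version nor role. No source used here gives the annotation or the strand setting of the counting. The reference at hand is of another build, so it served only for names, overlaps between genes and promoter windows. Of the identifiers 52083 had a symbol, and the others took 0.346% of counts. Depth was 42090437 to 71216636 counts per library, and intervals and floors cover counting error only.

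The test of counts used edgeR 4.0.16 (R 4.3.3): filterByExpr over the 4 groups, TMM scaling, 1 mean per group over 13 libraries (common dispersion 0.00967), 5 contrasts by the quasi-likelihood test, and Benjamini-Hochberg adjustment over the 22507 genes of a contrast, with a threshold of 0.05. The SE was taken from the F statistic. CPM are TMM-scaled, and log2 CPM carry a prior count of 2. The same code was tested on simulated data. Correlations were tested with 100000 permutations of the libraries without regard to group, so differences between groups enter their p-values. The members and the 12 other gene lists (155 genes in all, 2 not matched) were chosen with earlier results of these data known, the low values of KO normoxia replicate 2 included, so that library's values are a description without a test. The rule for named genes took all 10 members, the 10 genes most correlated with their score that had a symbol and a mean of at least 0 log2 CPM, the most abundant or called genes of the further choroid plexus list, and counts for the other lists. A gene that meets this rule is not reported here, although counts and medians include it. The further choroid plexus genes named for their level in KO normoxia replicate 2 alone were chosen after their values were seen.

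Libraries of 1 group differed by a chi-square per degree of freedom of at least 4.44, so none repeats another. No label says that replicates came from separate animals, so a p-value covers only the spread among the libraries at hand. Alternatives tried were scaling by RLE or by library totals alone, testing without the filter, DESeq2 1.42.0, a replicate block, a sex term, fits of only the groups compared and leaving out each library in turn. No sequence of Ttr is shown.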

Additional observations from a re-analysis of the deposited data

Results flagged for a closer look

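In the KO hypoxia group of 4 libraries, the gap between an extreme library and its nearest neighbour, as a share of the group's range, exceeded Dixon's 95% critical value for 2 of the 10 members. Enpp2 was at 313 CPM in KO hypoxia replicate 4, the highest of that group, against 282, 285 and 284 CPM in the other libraries. Calml4 was at 1.10 CPM (61 counts) in KO hypoxia replicate 2, the lowest of the group, against 1.33, 1.34 and 1.34 CPM. Chance alone flags about 1 in 20 such groups. The groups of 3 libraries were not tested in this way, so KO normoxia replicate 2 is not covered by it.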

How the results depend on the processing

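With all genes kept (no filter), 3 members were called in normoxia (Kl -0.91, adjusted p = 0.00025, Enpp2 -0.40, adjusted p = 0.00319, and Prlr -0.90, adjusted p = 0.00451) and 1 in hypoxia (Prlr -0.69, adjusted p = 0.0148), all by edgeR. The counts of genes called were then 995 in normoxia (524 with the filter), 833 for hypoxia against normoxia in KO (202), 158 in flox (5) and 55 for the interaction (0, with 1635 at an unadjusted p under 0.05). DESeq2 called 874, 755, 67 and 5 genes in these contrasts. Fits of only the groups compared called 1 member in hypoxia (Prlr), 30 genes for hypoxia in KO and 19 in flox. The cause of these differences was not tested.

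Leaving out each library in turn gave 250 (without flox normoxia replicate 1) to 727 genes for KO against flox in normoxia, with 260 and 299 without KO normoxia replicates 1 and 2. In hypoxia it gave 1151 (without flox hypoxia replicate 2) to 2490, with 1254 without flox hypoxia replicate 1. Hypoxia against normoxia gave 2 (without KO normoxia replicate 2) to 463 genes in KO, with 25 and 8 without KO normoxia replicates 1 and 3, 95, 103 and 118 without flox hypoxia replicates 1, 2 and 3, and 102 and 114 without KO hypoxia replicates 1 and 3. It gave 0 (without flox normoxia replicate 1 or 2 or flox hypoxia replicate 1) to 45 genes in flox (without flox normoxia replicate 3). The interaction gave 0 to 1. Members called ran from 0 to 1 in normoxia (Kl -1.36, adjusted p = 0.0444 by edgeR, without KO normoxia replicate 3) and from 0 to 1 in hypoxia (Prlr, without KO normoxia replicate 2), and were 0 in the other 3 contrasts.

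Of 200 member fold changes under alternatives in normoxia, 195 kept their direction and side of the threshold and 1 reversed, Calml4, which ran from -0.88 (KO normoxia replicate 1 left out) to 0.02 (KO normoxia replicate 2 left out). Of 200 in hypoxia, 190 did and 7 reversed. These were Otx2 with a sex term (-0.17) and without flox hypoxia replicate 1 (-0.07, with a range over left-out libraries up to 0.07), Ttr (0.13, range from -0.23), Sostdc1 (0.05) and Calml4 (0.09, range from -0.24) without flox hypoxia replicate 3, Sostdc1 without KO hypoxia replicate 1 (0.11, range from -0.16), and Calml4 without KO hypoxia replicate 2 (0.01). The gap of KO normoxia replicate 2 to the median score was -2.46 without Ttr and -2.96 without a composition factor. The median likeness of the 10 genes with the highest r was 0.98 over 13 libraries, 0.76 by Spearman's rho and 0.64 without the farthest 2 libraries.

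The replicate numbers did not pair the libraries: 1 of 18 same-numbered pairs had a correlation of deviations above 0.1 (-0.02 to 0.14), and 5 of 12 libraries correlated best with their own number. With the replicate block, Prlr was at -0.98 (adjusted p = 0.274) in normoxia and -0.72 (adjusted p = 0.329) in hypoxia by edgeR, 0 members were called, and the interaction gave 1 gene. The counts of further choroid plexus and ependymal genes without KO normoxia replicate 2 were chosen after seeing the data. Otx2, Calml4 and Folr1, with 8 to 18 counts in KO normoxia replicate 2, are the members whose levels there are least precise.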

Other observations

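Outside the lists, Mfrp and Prr32 were as low as the choroid plexus genes in KO normoxia replicate 2. Mfrp, a frizzled-related membrane protein gene, was at 0.0713 CPM (5 counts) there, against 1.99 to 6.39 CPM in the other 12 libraries. Prr32 was at 0.0143 CPM (1 count), against 1.05 to 1.81 CPM. Slc2a12, a glucose transporter, was at 2.62 CPM (184 counts), against 4.46 to 6.57 CPM. Ecrg4 is in the list of further choroid plexus genes but stands under its synonym 1500015O10Rik in the name table, so it was not matched to that list. It was at 0.798 CPM (56 counts), against 3.47 to 4.91 CPM. These genes were chosen after their values were seen.

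Within the 12 other libraries, the non-member genes with the highest r to the score were Insig2 (r = 0.90, rho = 0.90), Prr32 (r = 0.89, rho = 0.81) and Lrp12 (r = 0.89, rho = 0.87). Insig2, a regulator of sterol synthesis, had a permutation p of 0.00012 and an adjusted p of 0.311 over 22497 genes, and Lrp12 had a permutation p of 3e-05 and an adjusted p of 0.311. Neither passed the threshold. Insig2 and Lrp12 averaged 37.7 and 55.7 CPM and were in none of the lists.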
